A study of Mus musculus with 12 samples.

Results

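The genes described here are the interferon-response and MHC class I genes of mouse paraspinal tissue after spinal surgery, a list of 53 gene symbols of which 51 had a row among the 18996 genes of the deposited count table. The list covers the transcription factors that carry interferon signals, the antiviral and GTPase effector genes that interferons induce, the immunoproteasome and peptide loading genes, the class I heavy and light chains and a pair of interferon-induced chemokines. Mx1 and Mx2, the other 2 symbols of the list, were not analysed here. All 51 genes passed the filter on low counts. The list was drawn up with earlier results of these 12 mice known and its rule uses all 3 group comparisons. The members were in effect chosen by their CPM values across the 3 groups, so their values and counts of calls are a description, set beside the share of all genes called, and not an independent test. Bulk polyadenylated RNA was sequenced from 12 mice, 4 in each of 3 groups by the labels. The submitters kept only a part of each group for their own tests, chosen on RNA quality and sequencing metrics and not named in the sources used here, so all labelled mice were used. No operation mice were unoperated and gave paraspinal soft tissue. In SHAM mice the soft tissue beside the spine was opened and removed while the laminae, the bony plates that roof the spinal canal, were left in place. In Laminectomy mice the laminae were excised as well, and in both operated groups the sample was soft tissue together with scar, taken a week after the operation. Per the methods of the study the mice were young BALB/c mice, with no transgene or deletion named for any of the 3 groups. The dissected tissue was used whole, with no sorting of cells. Replicate numbers name the mouse within its group, and where 4 values of a group are given they are those of mice 1 to 4 in order.

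Type I interferons bind a receptor made of IFNAR1 and IFNAR2, and the JAK kinases bound to it start the assembly of the complex ISGF3, of which STAT2 and IRF9 are parts. ISGF3 binds the interferon-stimulated response element (ISRE) in front of genes such as Isg15 and Ifit1, while interferon gamma, through IFNGR1 and IFNGR2, acts through a gamma-activated sequence (GAS) in front of genes such as Irf1. Both arms meet on antigen presentation: the immunoproteasome cuts cytosolic proteins, the TAP transporter carries the peptides into the endoplasmic reticulum, tapasin helps to load them, and the class I heavy chain with beta-2 microglobulin shows them at the cell surface to CD8 T cells. In injured tissue these genes are expressed by macrophages, endothelial cells and fibroblasts as well as by lymphocytes.

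Totals per library ran from 16802989 to 18077868 counts, so total depth was similar, and the lowest count of any of the 51 genes in any mouse was 8. Values are counts per 1000000 counts of the library (CPM), with library sizes scaled by trimmed mean of M-values (TMM), and fold changes are log2 values from edgeR with their standard error (SE). The TMM factors ran from 0.849 to 0.939 in No operation mice, from 0.985 to 1.09 in SHAM mice and from 1.05 to 1.13 in Laminectomy mice. The scaled library sizes thus differed between unoperated and operated mice. The tissues differed in make-up. The summed CPM of 7 skeletal muscle markers was 74797 to 104240 in No operation mice, 1872 to 7459 in SHAM mice and 2611 to 10597 in Laminectomy mice, so the unoperated samples carried the marker genes of muscle. The summed CPM of 8 macrophage and monocyte markers was 517 to 1413 in No operation mice, 3703 to 6273 in SHAM mice and 2906 to 5053 in Laminectomy mice. The 10 T and NK cell markers summed to 1.19 to 11.8, 22.9 to 36.6 and 18.8 to 28.7 CPM in the same order, and all 6 fibroblast markers together to 7448 to 24236, 32245 to 43787 and 32899 to 48424 CPM. In bulk tissue a gain of cells of a type and more RNA per cell cannot be told apart, and the part of these cell types in the values below was not tested. Some libraries stood apart. SHAM 1 had the lowest muscle and the highest macrophage sum of its group. Laminectomy 1 had the lowest muscle sum (2611 CPM against 8206 to 10597 CPM in the other 3 mice) and the highest macrophage sum (5053 against 2906 to 3464 CPM) of its group. Central nervous system markers summed to 762 CPM in Laminectomy 2 and 208 CPM in Laminectomy 3. Neutrophil markers summed to 1693 CPM in No operation 2 and 676 CPM in No operation 3 against 59.5 and 13.7 CPM in the other 2 No operation mice. In Laminectomy 2 and 3 they summed to 1073 and 1698 CPM, against 435 CPM in Laminectomy 1 and 518 CPM in Laminectomy 4, and in SHAM mice to between 405 and 1109.9 CPM.

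Of the 51 genes, 41 had a promoter sequence in the RefSeq-based table used here (build GRCm38.p6, 250 bases before to 50 bases after the start of the gene). Each was searched on both strands for the core of the ISRE, written TTTCNNTTTC or GAAANNGAAA on the other strand, and for the GAS, TTCNNNGAA, which reads the same on both strands, and overlapping matches were all kept. The ISRE core was in the window of 22 of the 41 genes, against 3.99% of the 27025 genes with such a window, and the GAS in 11 of the 41, against 9.55%. A match describes the letters of the window and is not a bound site. By family, the ISRE core was in 6 of 7 IFIT and membrane restriction genes, all 4 guanylate-binding protein genes with a window, 3 of 4 immunity-related GTPase genes and none of the 3 immunoproteasome and 2 peptide loading genes. A call is defined below, and a gene without a call can still have an estimate above 0. The 10 sequences below are from genes called higher in both operated groups and from genes with the same letters that were not called. They lie at chr4:156200819-156200968 (minus strand), chr19:34640739-34640870, chr8:71537473-71537622 (minus strand), chr5:120907526-120907675 (minus strand), chr2:122147537-122147685, chr11:53769864-53770013, chr3:142559894-142560025, chr3:142530186-142530335, chr11:58199406-58199555 and chr11:58214827-58214976, on the plus strand where not stated, begin 150 bases before the RefSeq start and end at that start or before the first base annotated as exon. Each is written 5′ to 3′ on the strand of the gene, and capitals mark ISRE core and GAS matches.
Isg15: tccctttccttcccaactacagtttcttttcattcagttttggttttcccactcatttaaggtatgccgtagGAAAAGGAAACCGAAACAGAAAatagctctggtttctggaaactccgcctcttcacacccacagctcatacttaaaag
Ifit1: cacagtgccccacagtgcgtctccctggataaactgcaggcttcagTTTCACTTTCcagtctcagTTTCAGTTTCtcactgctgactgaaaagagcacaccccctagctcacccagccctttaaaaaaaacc
Bst2: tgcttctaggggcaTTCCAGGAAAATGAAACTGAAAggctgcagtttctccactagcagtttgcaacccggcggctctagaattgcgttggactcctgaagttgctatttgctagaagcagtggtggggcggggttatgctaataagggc
Oas1a: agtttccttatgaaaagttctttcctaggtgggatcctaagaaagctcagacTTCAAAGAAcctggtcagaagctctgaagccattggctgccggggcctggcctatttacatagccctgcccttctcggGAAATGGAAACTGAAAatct
B2m: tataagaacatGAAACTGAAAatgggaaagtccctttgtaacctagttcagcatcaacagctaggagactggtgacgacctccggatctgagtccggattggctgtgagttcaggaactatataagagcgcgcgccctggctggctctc
Irf1: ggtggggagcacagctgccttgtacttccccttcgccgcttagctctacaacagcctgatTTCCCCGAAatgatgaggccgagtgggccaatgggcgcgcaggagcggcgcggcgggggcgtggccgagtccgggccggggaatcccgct
Gbp3: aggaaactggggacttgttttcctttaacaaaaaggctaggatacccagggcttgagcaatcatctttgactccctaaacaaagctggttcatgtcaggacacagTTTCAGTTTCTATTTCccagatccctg
Gbp7: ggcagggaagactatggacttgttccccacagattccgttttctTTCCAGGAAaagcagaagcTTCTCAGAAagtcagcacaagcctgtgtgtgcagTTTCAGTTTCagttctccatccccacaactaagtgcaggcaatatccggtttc
Igtp: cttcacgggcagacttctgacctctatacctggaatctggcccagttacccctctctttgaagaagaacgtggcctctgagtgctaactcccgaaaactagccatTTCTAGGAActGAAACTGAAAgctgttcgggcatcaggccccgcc
Irgm2: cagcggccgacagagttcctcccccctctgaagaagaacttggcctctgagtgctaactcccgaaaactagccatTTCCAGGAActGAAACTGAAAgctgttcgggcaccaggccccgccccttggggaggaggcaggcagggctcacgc
Isg15 holds 3 overlapping ISRE cores, the first 78 bases before the start. Ifit1 holds 2, at 104 and 85 bases, Bst2 holds 2 that overlap each other and a GAS, and Oas1a holds 2 that begin 20 and 14 bases before the start. In Irf1 the marked letters are a GAS alone, 90 bases before the start. Gbp3, Gbp7, Igtp and Irgm2 hold the same ISRE letters, and in both Igtp and Irgm2 a GAS begins 11 bases before the ISRE core.

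In SHAM mice 38 of the 51 genes were called higher than in No operation mice, 1 was called lower and 12 were not called, where a call means an edgeR adjusted p under 0.05 with an absolute log2 fold change over 0.5. Over all 14765 genes tested 25.7% were called higher and 25.1% lower in this comparison. In Laminectomy mice, set against the same controls, 30 of the 51 were called higher and 3 lower, beside 24.2% and 24.4% of all genes. The median log2 fold change of the 51 genes was 0.99 in SHAM and 0.67 in Laminectomy, with a median over all genes within 0.01 of 0 in both. The estimate was above 0 for 48 of the 51 in SHAM (49.9% of all genes) and 45 of the 51 in Laminectomy (50.5% of all genes). Both comparisons use the same 4 No operation mice. All 4 SHAM mice lay above all 4 No operation mice for 35 of the 51 genes, where 26.7% of all genes did so, and all 4 Laminectomy mice for 27 of the 51, where 27% of all genes did so. The direct comparison of Laminectomy with SHAM called 0 of the 51 genes and 0% of all genes, where the smallest edgeR adjusted p of all genes was 0.0698, and its values follow the account of the families.

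**Figure D1:**
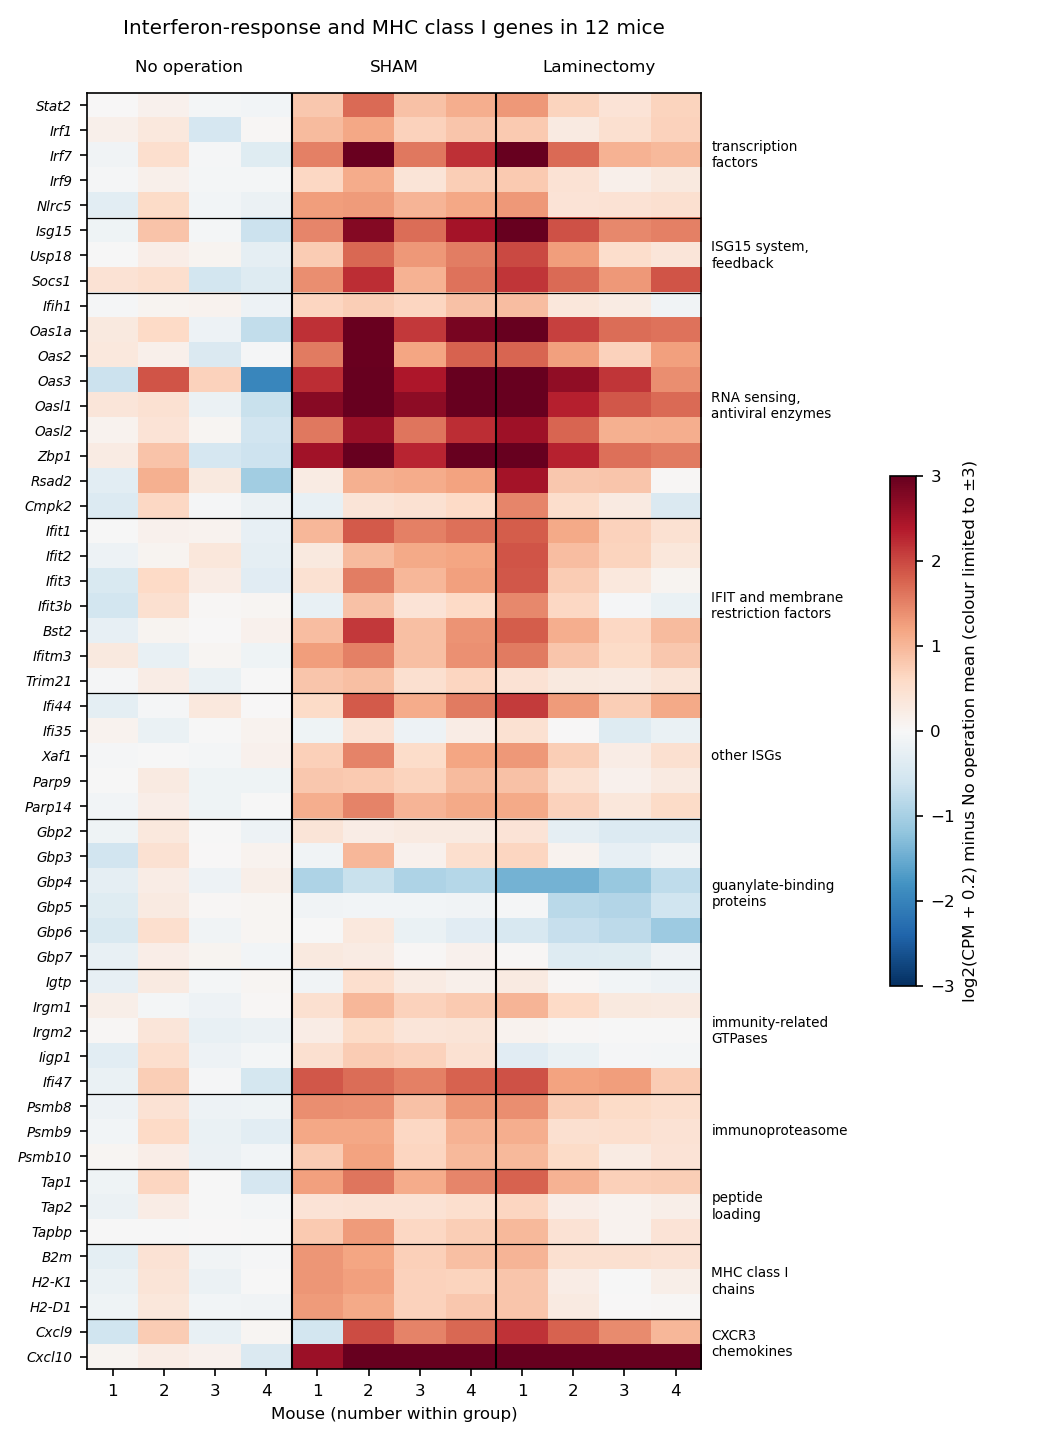
Each cell is log2(CPM + 0.2) of 1 gene (rows, by family) in 1 mouse (columns 1 to 4 of each group) minus the mean of the 4 No operation mice, with colour limited to 3 units either way. Most rows are red in all 8 operated mice, the guanylate-binding protein rows are pale or blue, and the column of Laminectomy 1 is redder than those of Laminectomy 2 to 4.

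Levels per kilobase of annotated exon (CPM per kb) set the genes in order. B2m stood first in all 3 groups, at 565 ± 127 CPM per kb (SD, n = 4) in No operation, 1149 ± 217 in SHAM and 855 ± 178 in Laminectomy. In No operation mice it was followed by H2-D1 at 254 ± 43.9, Ifitm3 at 180.0 ± 29.4, H2-K1 at 141 ± 27.9 and Tapbp at 38.9 ± 0.393 CPM per kb. H2-D1 and Ifitm3 stood in the other order in Laminectomy mice, at 316 ± 92.1 and 357 ± 117 CPM per kb, a difference within their spread. At the low end Cxcl10 was last of the 51 in No operation mice at 0.377 ± 0.0878 CPM per kb and 34th in SHAM mice at 8.63 ± 4.01 CPM per kb. Isg15 moved from 15th place (8.88 ± 4.24 CPM per kb) to 7th (38.9 ± 16.5 CPM per kb) between the same groups.

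The 5 transcription factor genes of the list were all called higher in SHAM and 4 of them in Laminectomy, beside 25.7% and 24.2% of all genes. Irf7, which amplifies type I interferon production, had the largest difference of the family. Its level was 22.9, 35.3, 24.4 and 19.3 CPM (No operation), 71.4, 195, 74.7 and 114 CPM (SHAM) and 203, 80.6, 51.5 and 48.7 CPM (Laminectomy). SHAM 2 and Laminectomy 1 lay far above the other mice of their groups, and no operated mouse overlapped the No operation range. The log2 fold change was 2.16 ± 0.49 (SE) in SHAM and 1.91 ± 0.48 in Laminectomy. Nlrc5, the transactivator of MHC class I genes, was at 14.3, 26.8, 16.9 and 15.8 CPM (No operation), 42.7, 44, 36.8 and 40.4 CPM (SHAM) and 44.1, 24, 24.2 and 25.2 CPM (Laminectomy). All SHAM mice were above the No operation range, whereas Laminectomy 2 to 4 fell inside it and Laminectomy 1 stood at the top of the SHAM range. The log2 fold changes were 1.15 ± 0.23 and 0.67 ± 0.23. Stat2, a subunit of ISGF3, was at 49.7, 54, 47.6 and 46.8 CPM (No operation), 87.3, 161, 91.6 and 106 CPM (SHAM) and 122, 78.2, 65.9 and 79.1 CPM (Laminectomy). For Stat2 the log2 fold change was 1.17 ± 0.22 in SHAM and 0.80 ± 0.22 in Laminectomy. Irf9, the DNA-binding part of ISGF3, was at 36.7, 41.6, 36.1 and 36 CPM (No operation), 58.3, 81.3, 49 and 62.8 CPM (SHAM) and 65.1, 50.4, 41.9 and 45.7 CPM (Laminectomy). The 3 groups of Irf9 values followed the order SHAM, Laminectomy, No operation, with the lowest operated mouse, Laminectomy 3, just above the highest No operation mouse, and the log2 fold change of Laminectomy, 0.43 ± 0.16, was under the size set for a call. Irf1, a GAS-driven factor that induces class I genes, had log2 fold changes of 0.89 ± 0.18 in SHAM and 0.54 ± 0.18 in Laminectomy.

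Isg15 encodes a ubiquitin-like protein that is joined to other proteins during an interferon response, Usp18 the protease that removes it and blocks IFNAR2 signalling, and Socs1 an inhibitor of the JAK kinases. All 3 were called higher in both operated groups, beside 25.7% of all genes in SHAM and 24.2% in Laminectomy. For each of the 3 the No operation mice lay below every operated mouse. Isg15 was at 5.65, 11.3, 5.93 and 3.93 CPM (No operation), 17.6, 43.4, 20.3 and 36.3 CPM (SHAM) and 56.9, 24.1, 17.1 and 18.1 CPM (Laminectomy). The log2 fold change was 2.13 ± 0.47 in SHAM and 2.11 ± 0.47 in Laminectomy, where Laminectomy 1 alone was at 56.9 CPM against 24.1 CPM in the next mouse of its group. Usp18 was at 6.69, 7.75, 7.13 and 5.61 CPM (No operation), 11.6, 22.7, 16.9 and 19.9 CPM (SHAM) and 27.4, 16.5, 9.79 and 8.71 CPM (Laminectomy). For Usp18 the log2 fold change was 1.39 ± 0.34 in SHAM and 1.20 ± 0.34 in Laminectomy. Socs1, at 3.10, 3.27, 1.47 and 1.68 CPM (No operation), 6.24, 11.2, 4.82 and 7.37 CPM (SHAM) and 10.7, 7.76, 5.85 and 8.86 CPM (Laminectomy), was one of 9 genes whose Laminectomy against SHAM estimate was above 0, at 0.16 ± 0.32.

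Among the 9 genes for RNA sensing and nucleotide-directed antiviral enzymes, 7 were called higher in SHAM and 6 in Laminectomy, beside 25.7% and 24.2% of all genes. The oligoadenylate synthetases make the messenger that activates the ribonuclease RNase L. Oasl1, an OAS-like protein that restrains Irf7 translation, had the largest difference of this family, at 3.38, 3.59, 2.26 and 1.54 CPM (No operation), 18.2, 26.1, 17.7 and 24.7 CPM (SHAM) and 39.3, 13.7, 9.84 and 8.76 CPM (Laminectomy). All operated mice were above all unoperated mice, and the log2 fold changes were 3.00 ± 0.49 and 2.73 ± 0.48. Oasl2 was at 29.8, 36.6, 28.8 and 18.4 CPM (No operation), 83.5, 166, 84.6 and 128 CPM (SHAM) and 162, 93.6, 57.8 and 59 CPM (Laminectomy). For Oasl2 the log2 fold change was 2.02 ± 0.36 in SHAM and 1.71 ± 0.36 in Laminectomy. Oas1a was at 10.8, 13.4, 7.86 and 5.12 CPM (No operation), 40.8, 69.3, 38.3 and 64.4 CPM (SHAM) and 78.7, 36.6, 28.5 and 27.4 CPM (Laminectomy), again with no overlap between unoperated and operated mice. Oas2 had the lowest Laminectomy against SHAM estimate of all 51 genes, -0.76 ± 0.35 on the log2 scale. Its level was 28.2, 25.4, 16.7 and 21.9 CPM (No operation), 67, 178, 52 and 77.5 CPM (SHAM) and 76.7, 53.7, 36.9 and 53.6 CPM (Laminectomy). SHAM 2, at 178 CPM, was above the next SHAM mouse at 77.5 CPM. Relative to its mean, Oas3 varied most among unoperated mice, from 1.05 to 17.7 CPM. Its fold changes carried the widest SE of the 51 genes, with 2.16 ± 0.75 in SHAM and 2.33 ± 0.76 in Laminectomy. Zbp1, a sensor of Z-form nucleic acid that can start necroptosis, was at 2.73 to 7.93 CPM in No operation, 21.7 to 52.1 CPM in SHAM and 13.1 to 48.2 CPM in Laminectomy. Ifih1, the double-stranded RNA sensor MDA5, differed by less, with 0.73 ± 0.18 in SHAM and 0.40 ± 0.18 in Laminectomy on the log2 scale. Rsad2 (viperin) and its neighbour Cmpk2, which together supply an antiviral nucleotide, were not called in either group. Rsad2 was at 16.8, 44.3, 25.7 and 10.02 CPM (No operation), 25, 43.8, 45.7 and 49 CPM (SHAM) and 120.0, 36.8, 37.3 and 21.6 CPM (Laminectomy). Laminectomy 1 stood at 120.0 CPM and the other 11 mice at or below 49 CPM, so the groups overlapped. Cmpk2 was at 11.5, 23.6, 14.9 and 13.7 CPM (No operation), 13, 20.2, 21.1 and 23.5 CPM (SHAM) and 42.4, 22.2, 18.6 and 11.3 CPM (Laminectomy) and overlapped in the same way.

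Of the 7 IFIT and membrane restriction genes, 6 were called higher in SHAM and 4 in Laminectomy, beside 25.7% and 24.2% of all genes. IFIT proteins bind viral RNA that lacks host cap marks. Ifit1 was at 11.9, 13.2, 13 and 10.1 CPM (No operation), 24.2, 43.4, 34.4 and 38 CPM (SHAM) and 42.6, 26.7, 19.3 and 16.5 CPM (Laminectomy), with log2 fold changes of 1.54 ± 0.28 and 1.13 ± 0.28 and no overlap with the unoperated mice. Ifit2 was at 26.9, 31.4, 37.8 and 24.5 CPM (No operation), 36.5, 57.7, 65.2 and 68.1 CPM (SHAM) and 111, 56.3, 47.6 and 37.4 CPM (Laminectomy). SHAM 1 and Laminectomy 4 lay within the No operation range of Ifit2, and its Laminectomy against SHAM estimate was above 0, at 0.15 ± 0.31. Ifit3b, a near copy of Ifit3, was at 6.13, 12.8, 9.32 and 9.46 CPM (No operation), 7.81, 16.9, 12.2 and 13.8 CPM (SHAM) and 25, 14.1, 8.96 and 7.92 CPM (Laminectomy) and was not called in either group. Counts of Ifit1, Ifit3 and Ifit3b were partly fractional, and how reads shared between these copies were split is not stated, so the separate values of Ifit3 and Ifit3b are uncertain. Ifitm3, which blocks entry of enveloped viruses at the endosome, had the highest level of the family per kb in all 3 groups. It was at 148, 103, 126 and 111 CPM (No operation), 291, 348, 228 and 315 CPM (SHAM) and 358, 217, 181 and 213 CPM (Laminectomy). Its log2 fold changes were 1.27 ± 0.22 and 0.99 ± 0.22. Bst2 (tetherin), which holds budding virus at the membrane, had fold changes of 1.42 ± 0.31 and 1.19 ± 0.30 on the log2 scale. Trim21, a cytosolic antibody receptor, was at 11.6, 13.9, 10.4 and 11.8 CPM (No operation), 21.1, 22.5, 16.7 and 18.8 CPM (SHAM) and 16.2, 14.6, 14.2 and 15.7 CPM (Laminectomy). It was one of the 5 genes whose 4 Laminectomy mice all lay below all 4 SHAM mice, and its Laminectomy mice were also all above the No operation mice. The Laminectomy against SHAM log2 fold change of Trim21 was -0.38 ± 0.12.

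**Figure D2:**
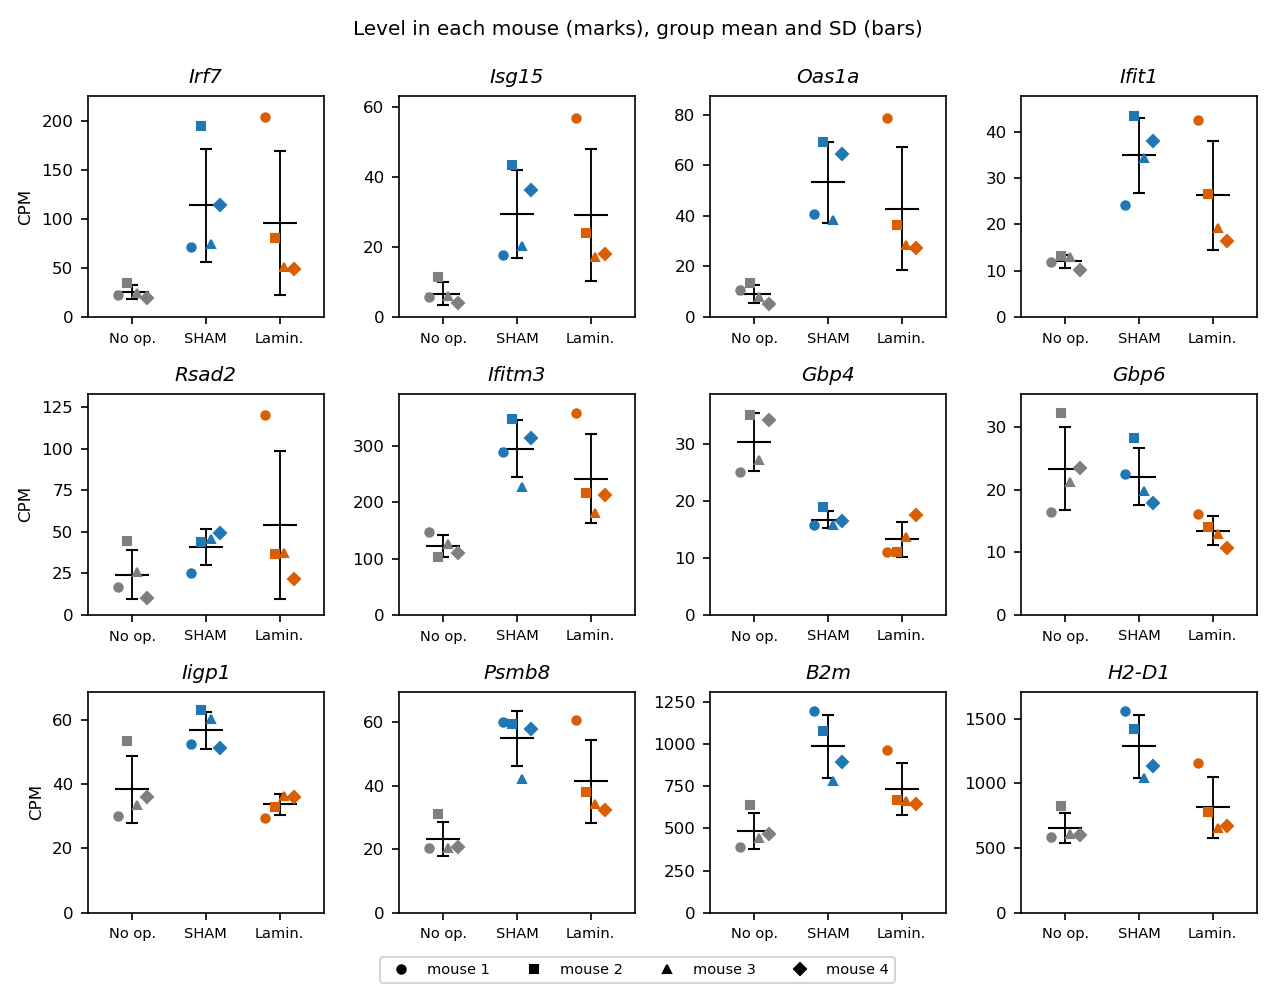
CPM (y axes, each from 0) of 12 genes in each mouse, with mark shapes for mouse numbers 1 to 4, a dash for the group mean and bars for 1 SD (n = 4). Laminectomy 1 tops its group in 10 of the 12 panels, Gbp4 is highest in No operation mice, and all 4 Laminectomy mice lie below all 4 SHAM mice for Gbp6 and Iigp1.

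Of 5 further interferon-stimulated genes, 4 were called higher in SHAM and 3 in Laminectomy, beside 25.7% and 24.2% of all genes. Ifi44 was at 4.20, 5.04, 6.53 and 5.26 CPM (No operation), 7.81, 19.2, 11.4 and 15.7 CPM (SHAM) and 22.9, 12.8, 8.86 and 11.6 CPM (Laminectomy). For Ifi44 the log2 fold change was 1.36 ± 0.33 in SHAM and 1.42 ± 0.33 in Laminectomy. Parp14, an ADP-ribosyltransferase, was at 47.6, 57.6, 45.7 and 50.05 CPM (No operation), 107, 141, 101 and 110.5 CPM (SHAM) and 109.7, 80.5, 63.8 and 75.1 CPM (Laminectomy). Every operated mouse was above the unoperated mice, and the log2 fold change was 1.19 ± 0.16 in SHAM against 0.71 ± 0.16 in Laminectomy. Its neighbour Parp9 and the apoptosis-linked Xaf1 had fold changes of 0.80 ± 0.15 and 1.04 ± 0.25 in SHAM. Ifi35 was the flat member of this set, at 23.6, 19, 21.6 and 23.3 CPM (No operation), 19.8, 29.7, 19.8 and 25.6 CPM (SHAM) and 30.3, 22.2, 16.7 and 18.9 CPM (Laminectomy), with estimates of 0.11 ± 0.19 and 0.01 ± 0.19 on the log2 scale.

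The guanylate-binding proteins, large GTPases that coat and break open the vacuoles of intracellular pathogens and are classic targets of interferon gamma, make up 6 genes of the list. None of the 6 was called higher in either group, beside 25.7% of all genes in SHAM and 24.2% in Laminectomy. In SHAM 1 was called lower and in Laminectomy 3, beside 25.1% and 24.4% of all genes, and whether the family differs from the other listed genes was not tested. Gbp4 was at 24.9, 35, 27 and 34.1 CPM (No operation), 15.7, 18.8, 15.7 and 16.4 CPM (SHAM) and 11, 11.1, 13.6 and 17.5 CPM (Laminectomy). All 8 operated mice lay below all 4 unoperated mice, and the log2 fold change was -0.86 ± 0.17 in SHAM and -1.19 ± 0.17 in Laminectomy. Gbp6 was at 16.4, 32.3, 21.2 and 23.6 CPM (No operation), 22.5, 28.3, 19.8 and 17.8 CPM (SHAM) and 16.2, 14, 13 and 10.6 CPM (Laminectomy). The SHAM mice of Gbp6 overlapped the No operation mice, while every Laminectomy mouse was below both groups, with log2 fold changes of -0.80 ± 0.21 against No operation and -0.72 ± 0.21 against SHAM. Gbp5 was at 12.2 to 19.1 CPM in No operation, 14.5 to 14.9 CPM in SHAM and 8.44 to 15.2 CPM in Laminectomy, and only its Laminectomy difference, -0.57 ± 0.19, was called. Gbp2 had estimates of 0.28 ± 0.18 in SHAM and -0.14 ± 0.18 in Laminectomy. Gbp3 was at 20.7, 43, 31.1 and 33.6 CPM (No operation), 28.9, 61.8, 33.9 and 44 CPM (SHAM) and 48.8, 33.5, 26.4 and 28.8 CPM (Laminectomy), with overlap among all groups. Gbp7 was at 35, 46.9, 43.3 and 38.8 CPM (No operation), 50.4, 48.6, 41.9 and 44.7 CPM (SHAM) and 41.6, 31, 31.8 and 36.9 CPM (Laminectomy). Laminectomy 2 and 3 were the lowest of the 12 mice for Gbp7, and its 4 Laminectomy mice were all below the 4 SHAM mice, at a log2 fold change of -0.39 ± 0.12. Gbp3, Gbp4, Gbp6 and Gbp7 had fractional counts, and 29.0% of the exon bases of Gbp6 are shared with another annotated gene, so reads may be split between copies of this family. Endothelial markers, from a cell type that expresses these genes, summed to 746 to 949 CPM in No operation, 554 to 772 CPM in SHAM and 507 to 756 CPM in Laminectomy mice. Their part in these values was not tested.

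Of the 5 immunity-related GTPases, which act on the same vacuoles, 3 were called higher in SHAM and 2 in Laminectomy, beside 25.7% and 24.2% of all genes. With so few genes these counts are no result about the family. Ifi47 had the largest difference, at 10.3, 19.96, 11.7 and 8.20 CPM (No operation), 43.9, 38.1, 34.2 and 40.8 CPM (SHAM) and 45.3, 27.7, 28.3 and 20.1 CPM (Laminectomy). For Ifi47 the log2 fold change was 1.64 ± 0.29 in SHAM and 1.27 ± 0.28 in Laminectomy. Irgm1, a regulatory member of the family, was at 42.5, 35.9, 33.5 and 37.9 CPM (No operation), 51.7, 75.2, 60.8 and 64.2 CPM (SHAM) and 75.4, 56.1, 45.5 and 44.9 CPM (Laminectomy). Each operated mouse was above the unoperated range. Igtp was at 20.7, 29.6, 23.6 and 25.8 CPM (No operation), 22.8, 35.4, 29.4 and 27.5 CPM (SHAM) and 29.9, 25.1, 23.4 and 22.2 CPM (Laminectomy) and had estimates of 0.21 ± 0.15 and 0.01 ± 0.15. Irgm2, which had the highest level of the family per kb in all 3 groups, was at 59.8, 74.8, 50.02 and 51.5 CPM (No operation), 68, 86.9, 75 and 76.4 CPM (SHAM) and 62.8, 60.1, 57.8 and 58.2 CPM (Laminectomy). In SHAM against No operation the log2 fold change of Irgm2 was 0.38 ± 0.12, under the size set for a call. In Laminectomy against No operation it was 0.02 ± 0.12. The 4 Laminectomy mice of Irgm2 were inside the No operation range and all below the 4 SHAM mice, with a Laminectomy against SHAM log2 fold change of -0.36 ± 0.12. Igtp and Irgm2 overlap on the same strand of chromosome 11 in the GENCODE annotation and share 162 exon bases. The Irgm2 window printed above, placed by the RefSeq start, lies inside the GENCODE span of Irgm2. Iigp1, an effector of the family, was at 30.2, 53.5, 33.6 and 36.2 CPM (No operation), 52.4, 63.2, 60.2 and 51.2 CPM (SHAM) and 29.5, 32.9, 36.4 and 36.1 CPM (Laminectomy). It was higher in SHAM than in No operation by 0.56 ± 0.16 on the log2 scale, with No operation 2 inside the SHAM range, and the 4 Laminectomy mice overlapped the No operation mice and lay below every SHAM mouse, at -0.75 ± 0.16 against SHAM. Neither Igtp nor Irgm2 was called in any comparison, and both windows printed above hold an ISRE core and a GAS.

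**Figure D3:**
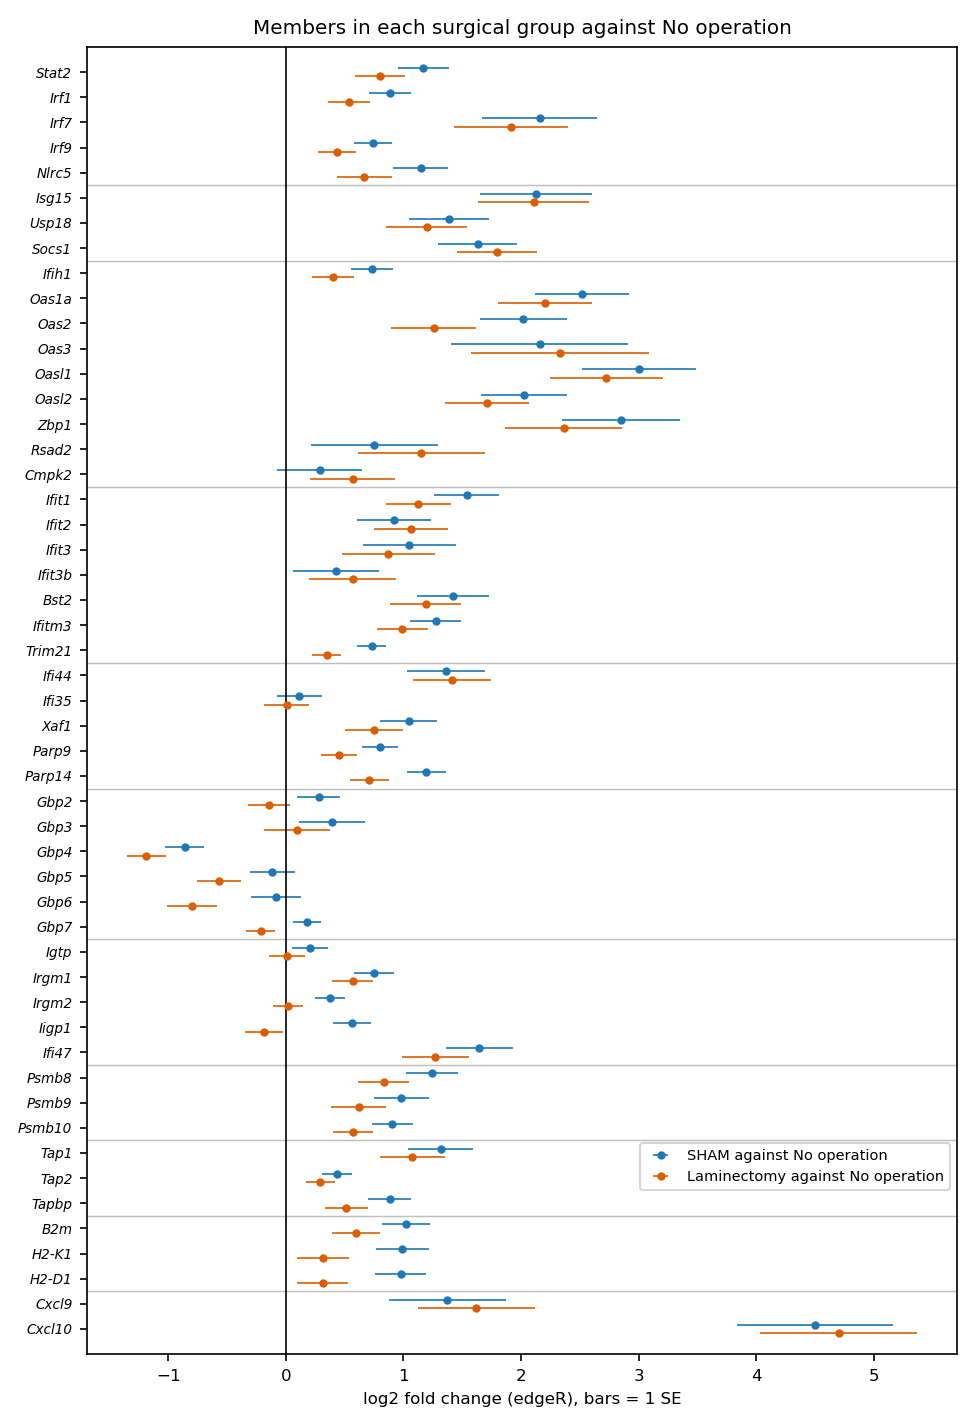
log2 fold change against No operation (x axis, edgeR, bars are 1 SE) of each gene (rows, by family) in SHAM (blue) and in Laminectomy (orange). Estimates lie right of 0 for 48 of 51 genes in SHAM and 45 of 51 in Laminectomy, and the guanylate-binding protein genes lie around or left of 0.

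The 3 immunoproteasome subunits replace the catalytic subunits of the constitutive proteasome under interferon. All of them were called higher in both operated groups, beside 25.7% of all genes in SHAM and 24.2% in Laminectomy. Psmb8 was at 20.5, 31, 20.5 and 20.7 CPM (No operation), 60.2, 59.5, 42.1 and 57.7 CPM (SHAM) and 60.7, 38.1, 34.3 and 32.4 CPM (Laminectomy). For Psmb8 the log2 fold change was 1.24 ± 0.22 in SHAM and 0.83 ± 0.22 in Laminectomy. Psmb10 was at 21.2, 23.4, 17.9 and 19.2 CPM (No operation), 34.7, 47, 31.6 and 39.8 CPM (SHAM) and 40.1, 30.3, 24 and 26.9 CPM (Laminectomy). Psmb9 had fold changes of 0.98 ± 0.23 and 0.62 ± 0.23 on the log2 scale. None of the constitutive counterparts, which are not in the list, was called higher. Psmb7, the counterpart of Psmb10, fell by 0.95 on the log2 scale in SHAM (SE 0.13, edgeR adjusted p = 1.0e-04) and by 0.74 in Laminectomy (SE 0.13, edgeR adjusted p = 6.5e-04). Psmb5 and Psmb6 had estimates of -0.28 ± 0.11 and -0.28 ± 0.13 in SHAM and were not called. The ratio of Psmb8 to Psmb5 CPM was 0.182, 0.363, 0.220 and 0.193 in No operation mice, 0.812, 0.745, 0.525 and 0.619 in SHAM mice and 0.617, 0.443, 0.416 and 0.363 in Laminectomy mice. The ratio of Psmb9 to Psmb6 was 0.0969 ± 0.0455 (SD, n = 4), 0.226 ± 0.0513 and 0.162 ± 0.0209 in the same order, and that of Psmb10 to Psmb7 0.113 ± 0.0247, 0.416 ± 0.119 and 0.276 ± 0.0612. No operation 2 had the highest ratio of its group for all 3 pairs. These ratios divide a listed gene by an unlisted one, so they take over the choice of the list and have no test.

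**Figure D4:**
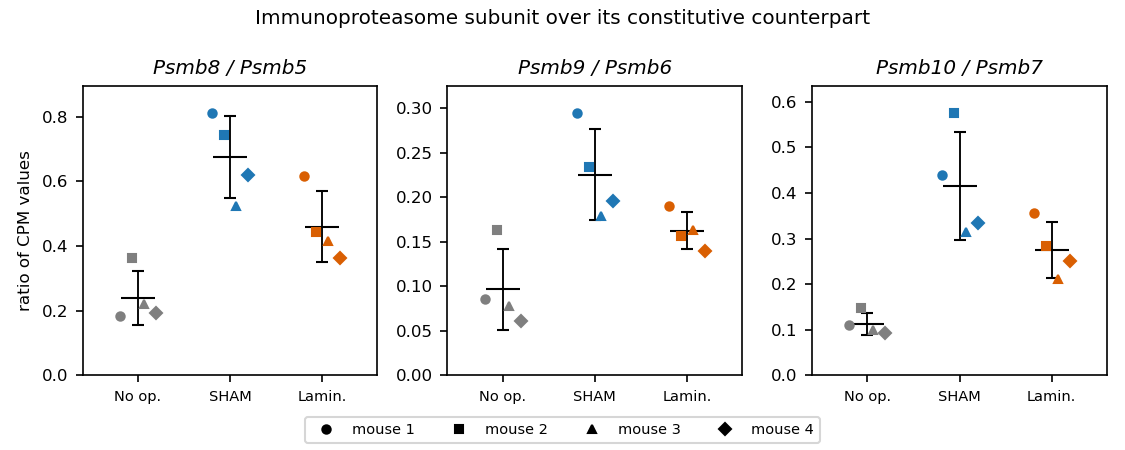
Ratio of CPM values (y axes, from 0) of each immunoproteasome subunit to its constitutive counterpart in each mouse, with the group mean (dash) and 1 SD (bars, n = 4). For Psmb10 over Psmb7 every operated mouse is above every unoperated mouse, for Psmb8 over Psmb5 Laminectomy 4 is level with No operation 2, and the SHAM mean is above the Laminectomy mean in all 3 panels.

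Of the peptide loading genes, Tap1 and Tapbp were called higher in both operated groups and Tap2 in neither. Of all genes 25.7% were called higher in SHAM and 24.2% in Laminectomy. Tap1, 1 chain of the peptide transporter, was at 23.7, 40.4, 25.8 and 18.3 CPM (No operation), 61.3, 79.5, 56.5 and 72.2 CPM (SHAM) and 88.5, 53.6, 42.8 and 43.3 CPM (Laminectomy). For Tap1 the log2 fold change was 1.32 ± 0.28 in SHAM and 1.08 ± 0.27 in Laminectomy. Tap2, the other chain, was at 42, 55, 47.2 and 45.7 CPM (No operation), 62.7, 63.9, 63.4 and 66.7 CPM (SHAM) and 74.2, 54.2, 50.6 and 53.7 CPM (Laminectomy). The SHAM mice were all above the No operation mice for Tap2 as well, but by 0.44 ± 0.12 on the log2 scale, under the size set for a call. Tapbp (tapasin) had an unusually even level in unoperated mice, 141, 140.1, 143 and 141 CPM, against 245, 342, 219 and 236 CPM in SHAM and 276, 192, 153 and 187 CPM in Laminectomy mice. An antisense transcript overlaps 24.9% of the exon bases of Tapbp, and the strand setting of the counting is stated only as default, so a part of its reads may come from that transcript.

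The 3 class I chains were, with Ifitm3, the 4 genes of the list with the highest levels per kb. All 3 were called higher in SHAM, while B2m alone was called in Laminectomy, beside 25.7% and 24.2% of all genes called higher. B2m, the light chain shared by all class I molecules, was at 390.1, 642, 443 and 468 CPM (No operation), 1198, 1080.5, 779 and 894 CPM (SHAM) and 965, 667, 666 and 644 CPM (Laminectomy). All operated mice were above all unoperated mice, by 1.02 ± 0.20 in SHAM and 0.60 ± 0.20 in Laminectomy on the log2 scale. H2-K1, a classical heavy chain, was at 357, 534, 365 and 405 CPM (No operation), 1019, 961, 664 and 655 CPM (SHAM) and 726, 474, 409 and 461 CPM (Laminectomy). The 4 SHAM mice were above the No operation range, Laminectomy 2 to 4 were inside it, and the log2 fold changes were 0.99 ± 0.23 and 0.32 ± 0.22. H2-D1, the other classical heavy chain of the list, was at 589, 825, 608 and 599.7 CPM (No operation), 1563, 1418, 1039.5 and 1134 CPM (SHAM) and 1161, 777, 652 and 668 CPM (Laminectomy). It followed H2-K1, with log2 fold changes of 0.98 ± 0.22 and 0.31 ± 0.21. Laminectomy 1 was the one mouse of its group at the SHAM level for both heavy chains, and the Laminectomy against SHAM estimates were -0.67 ± 0.22 and -0.66 ± 0.22. The mice are BALB/c and the reads were aligned to the C57BL/6-based reference, whose class I alleles differ from theirs, and the class I genes are near copies of each other, so levels of H2-K1 and H2-D1 are less certain than those of B2m. Counts of both heavy chains were partly fractional.

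Cxcl9 and Cxcl10 encode ligands of CXCR3, the receptor that brings activated T cells into tissue. Cxcl10 had the largest difference of all 51 genes. It was at 0.896, 1.01, 0.932 and 0.561 CPM (No operation), 5.96, 22.8, 24.5 and 24.4 CPM (SHAM) and 50.1, 18.6, 9.12 and 11.7 CPM (Laminectomy). For Cxcl10 the log2 fold change was 4.50 ± 0.67 in SHAM and 4.70 ± 0.67 in Laminectomy. SHAM 1, the SHAM mouse with the highest macrophage sum, had the lowest Cxcl10 of the operated mice at 5.96 CPM, and Laminectomy 1 the highest. Cxcl9 was at 1.79, 4.97, 2.40 and 2.94 CPM (No operation), 1.85, 11.5, 8.31 and 9.77 CPM (SHAM) and 13.4, 10.1, 7.87 and 5.89 CPM (Laminectomy). SHAM 1 lay within the unoperated range for Cxcl9, and the log2 fold changes were 1.37 ± 0.50 and 1.62 ± 0.50.

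By the GENCODE annotation of GRCm38, 26 of the 51 genes lie in 10 groups of neighbours with gaps of at most 100 kb. Of all genes 25.7% were called higher in SHAM and 24.2% in Laminectomy, and neighbouring genes in general were not counted. The counts that follow are thus no result about a locus. Ifit2, Ifit3, Ifit3b and Ifit1 fill chr19:34550694-34650009, and 3 of these 4 were called higher in SHAM and 2 in Laminectomy. Psmb9, Tap1, Psmb8 and Tap2 fill chr17:34181987-34216321 in the MHC, where 3 of 4 were called higher in both operated groups. Gbp5, Gbp7, Gbp3 and Gbp2 lie at chr3:142493978-142638008, where none was called higher in either group and Gbp5 was called lower in Laminectomy. Rsad2 and Cmpk2, at chr12:26442746-26479837, and Igtp and Irgm2, at chr11:58199556-58222782, were called in no comparison. The pairs Cxcl9 and Cxcl10, Oasl2 and Oasl1, and Oas2 and Oas3, all on chromosome 5, were called higher in both operated groups. Of the genes with a promoter window, 14 of 22 with an ISRE core and 17 of 19 without one were called higher in SHAM, with median log2 fold changes of 0.89 and 0.99. In Laminectomy 11 of 22 and 14 of 19 were called higher. For the GAS the counts were 6 of 11 with and 25 of 30 without in SHAM, and 6 of 11 and 19 of 30 in Laminectomy. The motifs are unevenly spread over the families, so these counts are no result about a motif.

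The direct comparison of Laminectomy with SHAM asks what excision of the lamina adds to soft tissue surgery. Its estimate was below 0 for 42 of the 51 genes and above 0 for 9, where 49.4% of all genes were below 0, with a median of -0.31 on the log2 scale against a median over all genes of 0.00. The edgeR fit called none of the 51 genes and none of all genes. At an unadjusted p under 0.05 it counted 11 of the 51 and 2359 of all 14765 genes, and DESeq2 called 3 of the 51, all lower (Gbp6, Iigp1 and H2-D1), where it called 4.35% of all genes and 2.24% lower. The 4 Laminectomy mice lay wholly below the 4 SHAM mice for 5 of the 51 genes (Trim21, Gbp6, Gbp7, Irgm2 and Iigp1), where 5.07% of all genes did so, and wholly above them for 0, where 5.05% of all genes did so. By family, the estimate was below 0 for all 5 transcription factors, all 6 guanylate-binding proteins, all 5 immunity-related GTPases and all 9 immunoproteasome, peptide loading and class I chain genes, and above 0 for both chemokines, of which Cxcl10 turned below 0 without Laminectomy 1, at -0.57 ± 0.43.

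Laminectomy 1 and SHAM 2 weighed on this comparison in opposite directions. Laminectomy 1 had the highest level of the 4 Laminectomy mice for 49 of the 51 genes, where it did so for 33.7% of all genes. SHAM 2 was the highest SHAM mouse for 35 of the 51 genes (27.8% of all genes), and No operation 2 the highest unoperated mouse for 41 of the 51 (24% of all genes). Laminectomy 1 and SHAM 2 were singled out after seeing the values of the listed genes. Leaving either out therefore moves these genes in part by the choice itself, and the shares of all genes given beside the counts are not a like comparison. With Laminectomy 1 left out, 49 of the 51 estimates against SHAM were below 0, where 50.3% of all genes were, and the median log2 fold change was -0.55. The other 3 Laminectomy mice then lay wholly below the 4 SHAM mice for 26 of the 51 genes, where 10.8% of all genes did so, and edgeR again called 0 of the 51. Among these 26 were H2-K1 at -0.88 ± 0.21, H2-D1 at -0.88 ± 0.19, B2m at -0.58 ± 0.20, Nlrc5 at -0.74 ± 0.19, Psmb8 at -0.65 ± 0.18 and Oasl1 at -1.01 ± 0.28 on the log2 scale. At an unadjusted p under 0.05 edgeR then counted 36 of the 51 and 2728 of 14920 genes tested, a count that the choice of mouse also moves. Without Laminectomy 1 the estimates of Oas3, Rsad2, Cmpk2, Ifit2, Ifit3b, Ifi44 and Cxcl10 turned from above to below 0, those of Rsad2 and Ifit2 from 0.40 ± 0.53 and 0.15 ± 0.31 to -0.36 ± 0.43 and -0.27 ± 0.23. Socs1 and Cxcl9 stayed above 0, at 0.02 ± 0.35 and 0.02 ± 0.51. With SHAM 2 left out instead, the median log2 fold change of Laminectomy against SHAM was -0.18, 38 of the 51 estimates were below 0, where 47.9% of all genes were, and edgeR called 0 of the 51. The 4 Laminectomy mice then lay wholly below the other 3 SHAM mice for 5 of the 51 genes, where 7.76% of all genes did so. Against No operation, the median of the 51 genes in Laminectomy was 0.44 without Laminectomy 1, and 24 of the 51 genes were called in place of 33. Laminectomy 1 was also the mouse with the lowest muscle and highest macrophage marker sums of its group, and the part of tissue make-up in its values was not tested.

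**Figure D5:**
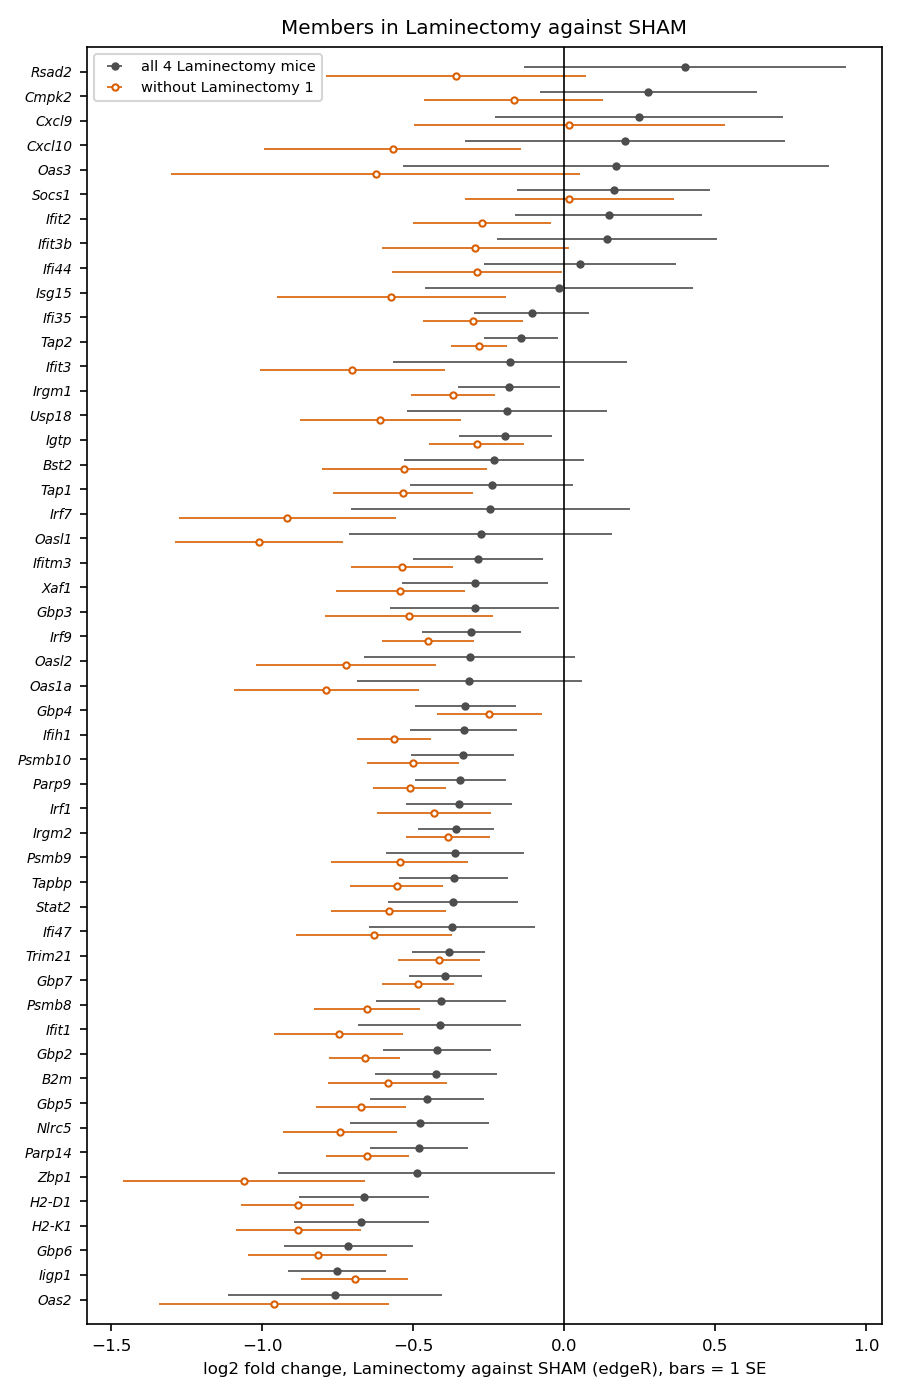
log2 fold change of Laminectomy against SHAM (x axis, edgeR, bars are 1 SE) of each gene (rows, ordered by the estimate from all mice), with all 4 Laminectomy mice (filled) and without Laminectomy 1 (open). With all mice 42 of 51 estimates lie left of 0, and without Laminectomy 1 49 of 51 do.

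A wider set of 166 interferon and class I genes outside the list, of which 144 had a row and 129 were tested, was compared by the same fit, with p-values adjusted over all genes tested. These lists too were chosen with earlier results of these data known. Apart from interferon and receptor genes, the genes named below were picked for the largest called changes. Their counts and p-values are thus a description and not independent support. In SHAM 86 were called higher and 9 lower than in No operation, beside 25.7% and 25.1% of all genes. In Laminectomy 65 were called higher and 11 lower, beside 24.2% and 24.4% of all genes. None was called between Laminectomy and SHAM. There the estimate was below 0 for 111 of 129, 34 had an unadjusted p under 0.05 in edgeR (2359 of all 14765 genes) and DESeq2 called 13, all lower (2.24% of all genes). No interferon gene itself passed the filter: the 8 with a row had 0 to 6 counts per library, the most being 6 for Ifnz in SHAM 3, and Ifnb1 had 3 counts in Laminectomy 1 and 0 in the other 11 mice. Ifng had 0 to 3 counts per library. A level of 3 counts is 0.154 to 0.21 CPM, so interferon transcripts were not measurable at this depth.

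Among the receptors, Ifnar1, a chain of the type I receptor, rose from 65.6 ± 8.81 CPM (SD, n = 4) in No operation to 186 ± 34.2 CPM in SHAM and 139 ± 21.5 CPM in Laminectomy, at log2 fold changes of 1.50 ± 0.16 (edgeR adjusted p = 1.8e-05) and 1.08 ± 0.16 (edgeR adjusted p = 1.5e-04). Ifnar2 rose by 1.44 ± 0.17 (edgeR adjusted p = 3.8e-05) and 0.80 ± 0.17 (edgeR adjusted p = 0.0018), and Il10rb, shared by the type III interferon and IL-10 receptors, by 1.65 ± 0.18 (edgeR adjusted p = 2.1e-05) and 1.12 ± 0.18 (edgeR adjusted p = 2.7e-04). The interferon gamma receptor chains Ifngr1 and Ifngr2 were not called, with 0.38 ± 0.14 (edgeR adjusted p = 0.028) and 0.34 ± 0.12 (edgeR adjusted p = 0.034) in SHAM, under the size set for a call, and -0.09 ± 0.14 (edgeR adjusted p = 0.58) and 0.12 ± 0.12 (edgeR adjusted p = 0.42) in Laminectomy. Ifnlr1, the other chain of the type III receptor, was at 2.29 to 3.92 CPM on average and was not called, with 0.38 ± 0.80 (edgeR adjusted p = 0.7) in SHAM. Over the 20 receptor and signalling genes outside the list, 10 were called higher in SHAM and 8 in Laminectomy, beside 25.7% and 24.2% of all genes, and 1 was called lower in each, beside 25.1% and 24.4%. Socs3, an inhibitor of JAK signalling, rose by 2.56 ± 0.59 (edgeR adjusted p = 0.003) in SHAM, Ptpn6, the phosphatase SHP-1, by 1.61 ± 0.40 (edgeR adjusted p = 0.0049) in Laminectomy. Usp25 fell in both, with log2 fold changes of -0.86 ± 0.15 (edgeR adjusted p = 3.8e-04) and -0.94 ± 0.15 (edgeR adjusted p = 2.6e-04).

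Of 19 nucleic acid sensors and adaptors, 17 were called higher in SHAM and 14 in Laminectomy, beside the same shares of all genes. Ikbke, a kinase upstream of interferon induction, rose by 2.71 ± 0.38 (edgeR adjusted p = 9.5e-05) in SHAM, and Tlr9, the endosomal DNA sensor, by 2.20 ± 0.36 (edgeR adjusted p = 3.3e-04) in Laminectomy. Mavs, the mitochondrial adaptor of the RNA sensors, fell from 71.4 ± 7.73 CPM to 37.2 ± 3.05 CPM and 33.1 ± 2.39 CPM, at log2 fold changes of -0.94 ± 0.10 (edgeR adjusted p = 1.7e-05) and -1.11 ± 0.10 (edgeR adjusted p = 9.4e-06). Of 56 other interferon-stimulated genes tested, 48 were called higher in SHAM and 0 lower, and 37 higher and 2 lower in Laminectomy. Of all genes 25.7% and 25.1% were called in these directions in SHAM, and 24.2% and 24.4% in Laminectomy. Ms4a4c, a membrane protein gene of the Ms4a family, rose by 3.53 ± 0.67 (edgeR adjusted p = 7.9e-04) in SHAM and Ifit1bl1 by 3.76 ± 0.74 (edgeR adjusted p = 0.0011) in Laminectomy, while Ifi27l2a fell in Laminectomy, at -1.01 ± 0.27 (edgeR adjusted p = 0.0078). The estimates of Ms4a4c and Ifit1bl1 for Laminectomy against SHAM were above 0 with all mice and below 0 without Laminectomy 1. The 10 other interferon-inducible GTPases tested had 3 called higher and 4 lower in SHAM and 1 higher and 3 lower in Laminectomy, beside 25.7% and 25.1% of all genes in SHAM and 24.2% and 24.4% in Laminectomy, so these counts are no result about the family. Gm12250 rose by 1.83 ± 0.32 (edgeR adjusted p = 5.0e-04) in SHAM, whereas Tgtp1 fell by 1.59 on the log2 scale in Laminectomy (edgeR adjusted p = 1.9e-04) and Gbp10 by 1.78 in SHAM (edgeR adjusted p = 0.022). Tgtp1 and Gbp10 have near copies in the genome, so their counts are uncertain.

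Among 12 other class I and class I-like genes, 4 were called higher and 2 lower in SHAM, and 1 higher and 3 lower in Laminectomy. Of all genes 25.7% and 25.1% were called in these directions in SHAM and 24.2% and 24.4% in Laminectomy, so these counts too are no result about the group. H2-M3, which presents formylated peptides, rose from 9.42 ± 0.505 CPM to 24.3 ± 5.49 CPM in SHAM and 14.9 ± 2.65 CPM in Laminectomy, at 1.37 ± 0.17 (edgeR adjusted p = 4.9e-05) and 0.67 ± 0.17 (edgeR adjusted p = 0.0054). Cd1d1, which presents lipids to NKT cells, fell by 1.41 and 1.64 on the log2 scale (edgeR adjusted p = 0.0071 and 0.0032). H2-M2 was called higher in SHAM at under 1 CPM in every group mean, with 2.59 ± 0.92 (edgeR adjusted p = 0.029). All 12 had a Laminectomy against SHAM estimate below 0, with a median of -0.66. Of 9 other class I assembly genes, 4 were called higher in each operated group, beside 25.7% of all genes in SHAM and 24.2% in Laminectomy. The largest difference was that of Pdia3, a disulphide isomerase of the loading complex, with 1.17 ± 0.18 (edgeR adjusted p = 2.1e-04) in SHAM and 1.23 ± 0.18 (edgeR adjusted p = 1.8e-04) in Laminectomy.

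Outside all these lists, the genes whose log2 CPM followed the mean standardised level of the 51 genes most closely over the 12 mice were Rnf213 (Pearson r = 0.961), a giant ubiquitin ligase, Arhgef1 (r = 0.961), Ap1g2 (r = 0.94), Cabin1 (r = 0.94) and Plekhm1 (r = 0.935). The 12 mice include all 3 groups and share the tissue differences described above, and the correlations are given as a description. Rnf213 was at a mean of 83.4 CPM in No operation, 192 CPM in SHAM and 160.0 CPM in Laminectomy mice.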

How the data were processed

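RNA of 12 mice was measured, 4 in each of 3 groups taken from the sample labels. The study's own tests used 3 mice per group, which are not named in the sources used here, and all 4 were used. Per the submitters' processing notes the authors aligned reads to GRCm38 (mm10) with STAR 2.6.1b and counted them with featureCounts 2.0.1; they deposited estimated counts per gene, not normalised. The step that left 10.2% of the deposited values not whole is not given in the sources used here, and counting at default settings on stranded libraries uses no strand. Values were rounded to whole numbers, genes with low counts were removed with filterByExpr (14765 of 18996 were kept), and all 12 mice were fitted together with edgeR 4.0.16 (TMM scaling, quasi-likelihood test, Benjamini-Hochberg adjustment over all genes tested). A gene was called at an adjusted p under 0.05 and an absolute log2 fold change over 0.5. SDs and SEs cover the spread between mice, and a level of 3 counts covers counting error only. DESeq2 1.42.0 was an alternative, as were RLE scaling, no filter, values not rounded, a larger fold change, only the 2 groups compared, a replicate block and leaving out each mouse. The gene list, its families and the other lists were chosen with earlier results of these data known. Per mouse values were given, within each family, for the gene with the highest mean CPM, for those with the largest and the smallest log2 fold change of Laminectomy against SHAM and of SHAM against No operation, and for genes whose SHAM and Laminectomy mice did not overlap. Outside the list, group levels or fold changes were given for interferon and receptor genes and for the called genes with the largest rise and fall per list and comparison. A few other listed genes are named with values to complete a family. The 5 most similar genes had the highest Pearson correlation with the listed genes' mean standardised log2 CPM among genes with a mean of at least 10 CPM. Exon lengths and positions are from GENCODE vM21. The labels do not state whether mice shared a litter, batch or day.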

Additional observations from a re-analysis of the deposited data

Results flagged for a closer look

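Among the 39 listed genes given mouse by mouse, each group of 4 mice was examined for 1 mouse far from the other 3, by Dixon's criterion, and 10 of the 117 groups held such a mouse, where chance gives about 1 in 20. Laminectomy 1 was far above the other Laminectomy mice for 5 genes. It stood at 44.1 CPM for Nlrc5 (others 24 to 25.2 CPM), at 120.0 CPM for Rsad2 (others 21.6 to 37.3 CPM) and at 39.3 CPM for Oasl1 (others 8.76 to 13.7 CPM). For Tap2 it was at 74.2 CPM (others 50.6 to 54.2 CPM), and for B2m at 965 CPM (others 644 to 667 CPM). No operation 2 was far above the other unoperated mice for Irf9 at 41.6 CPM (others 36.0 to 36.7 CPM), for Psmb8 at 31.0 CPM (others 20.5 to 20.7 CPM) and for H2-D1 at 825 CPM (others 589 to 608 CPM). SHAM 3 was low for Psmb8 at 42.1 CPM (others 57.7 to 60.2 CPM), and SHAM 1 was low for Cxcl10 at 5.96 CPM (others 22.8 to 24.5 CPM). The genes share libraries, so these are not 10 separate events.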

How the results depend on the processing

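With the absolute log2 fold change for a call raised to 1, the number of listed genes called went from 39 to 25 in SHAM and from 33 to 19 in Laminectomy against No operation, and that of pathway genes outside the list from 95 to 60 and from 76 to 46. For Laminectomy against SHAM, where edgeR called 0, DESeq2 called 3 listed genes and 13 outside genes. Leaving out each mouse in turn gave 34 to 41 listed genes in SHAM and 24 to 36 in Laminectomy against No operation, 86 to 99 and 62 to 84 outside genes, and 0 of either between Laminectomy and SHAM. The median log2 fold change of the listed genes then ran from 0.91 to 1.19 in SHAM, from 0.44 to 0.82 in Laminectomy and from -0.55 to -0.18 between them, the lower value of the last 2 without Laminectomy 1 and the -0.18 without SHAM 2. The mice do not pair by number: same-number correlations of deviations from the group means ran from -0.23 to 0.35, 7 of 12 same-number pairs were over 0.1, and in 4 of the 12 the same number correlated best. With a replicate block 39, 32 and 0 listed genes and 94, 75 and 0 outside genes were called in SHAM, in Laminectomy and between them. Of the 23 named genes outside the list, 5 turned direction in at least 1 alternative. For Laminectomy against SHAM the log2 fold change of Ms4a4c was -0.030 with the replicate block, and with each mouse left out in turn it ran from -0.52 to 0.40 for Ms4a4c, -0.49 to 0.88 for Ifit1bl1 and -0.049 to 0.10 for Pdia3, each lowest without Laminectomy 1 or SHAM 2. That of Ifi27l2a in SHAM against No operation ran from -0.18 without SHAM 2 to 0.29. The log2 fold change of Ifnlr1 in Laminectomy was 0.77 against No operation and 0.39 against SHAM. With each mouse left out in turn it ran from 0.40 to 2.47 and from 0.048 to 0.61. Leaving out Laminectomy 2 and 3, an alternative chosen after seeing the data, moved Ifnlr1 to -0.075 against No operation and -0.46 against SHAM. The cause was not tested. Limits: 4 mice a group, mixed bulk tissue, class I genes of a strain that differs from the reference, and interferon genes below the depth measured.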
